A study of Mus musculus with 11 samples.

Results

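RNA of 1 library of untreated, BCR/ABL-transduced mouse marrow cells labelled c-Fos-/-Dusp1-/- was compared with that of 2 libraries of untreated BCR/ABL cells. The comparison covered the 10383 autosomal genes that reached 1 FPKM (a read level per transcript length and depth) in 2 or more of these 3 libraries, out of 23444 rows in the table and 11 libraries in the series. The series asks whether a pair of drugs against FOS and Dusp1 acts as loss of both genes does in BCR/ABL cells. Per the labels, all libraries came from Kit+ (CD117 bead-selected) bone marrow of C57BL/6 mice and were grown in mSCF, IL-3, IL-6 and FLT3. The labelled deleted cells came from mice with floxed c-Fos alleles (c-Fos fl/fl), a ROSACreERT2 allele and Dusp1-/-. The untreated BCR/ABL cells came from wild-type mice. CreERT2 is a recombinase that tamoxifen activates. The labels do not say whether or when it was activated. Cells of both genotypes carried BCR/ABL from a retrovirus with a yellow fluorescent marker and were sorted for the marker. Both libraries labelled deleted (untreated, and treated with imatinib for 4 h) may come from 1 animal, since the labels do not say. Abl1, in whose value reads of the transgene may be counted, had 15.1 FPKM in the labelled deleted library, against 24.6 and 24.3 FPKM in the untreated libraries (not called), and whether those reads are included was not tested.

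BCR/ABL is the fusion kinase of chronic myeloid leukaemia, and it drives growth through STAT5, MYC and the ERK branch of the MAP kinases. c-Fos pairs with Jun proteins to form the transcription factor AP-1, whose genes are induced within minutes of ERK and p38 signalling. Dusp1 is a nuclear phosphatase that switches off the MAP kinases p38, JNK and ERK, and it is itself an early response gene. Kit+ marrow holds stem and progenitor cells that yield neutrophils, monocytes, mast cells, basophils and platelets in culture.

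Fos and Dusp1, the genes named in the label, were higher in the labelled deleted library. Fos had 21.6 FPKM there, against 5.09 and 4.81 FPKM in the untreated BCR/ABL libraries, a difference of 1.93 on the log2(FPKM + 1) scale. Dusp1 had 35.7 FPKM in the labelled deleted library, against 8.22 and 8.46 FPKM in the untreated libraries, a difference of 1.97. In both cases the labelled deleted library lay outside the untreated pair by more than the pair's own range of 0.07 (Fos) and 0.04 (Dusp1). That range may be technical, since the labels do not say that the pair came from separate animals. The RNA of the labelled deleted cells with imatinib showed the same direction, with Fos at 15.9 FPKM against 6.79 and 7.42 FPKM with imatinib alone, and Dusp1 at 28.1 FPKM against 7.56 and 8.63 FPKM. A value per gene pools all exons and cannot place reads within an allele, so these values neither show the labelled loss nor test it. Gt(ROSA)26Sor, the noncoding transcript of the locus that the CreERT2 label names, had 3.48 FPKM in the labelled deleted library, against 9.84 and 11.3 FPKM in the untreated libraries. With imatinib it had 4.04 FPKM in the labelled deleted library, against 12.3 and 11.7 FPKM. It lay below both BCR/ABL libraries with and without imatinib, and this gene was chosen after its values were seen.

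Sex-linked genes, which the comparison leaves out, separated the same libraries as the label. Eif2s3y, on the Y chromosome, had 35.1 FPKM in the labelled deleted library, against 0.0252 and 0 FPKM in the untreated libraries. Xist, which is transcribed from the inactive X chromosome, had 6.00 FPKM in the labelled deleted library, against 47.4 and 61.1 FPKM. The imatinib-treated labelled deleted library had 36.2 FPKM of Eif2s3y, and the other 9 libraries had at most 0.0252 FPKM. Xist was 6.54 FPKM in that imatinib-treated library, so both libraries labelled deleted held Y-linked RNA together with some Xist. The source of that Xist was not tested. The labels give no sex, and sex and labelled genotype cannot be told apart in these libraries.

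In the library labelled deleted, 15 of 27 macrophage markers, 8 of 20 NRF2 antioxidant targets and 7 of 24 lysosome genes were called higher than in both untreated BCR/ABL libraries. Called lower were 19 of 29 interferon response genes, 12 of 16 mast cell and basophil markers and 9 of 13 primary granule markers of neutrophils. A gene was called when log2(FPKM + 1) in the labelled deleted library differed by at least 1 from each of the 2 untreated libraries in the same direction, with at least 5 FPKM on the higher side. By this rule 351 genes (3.38% of those compared) were higher and 220 genes (2.12%) lower. List counts below are read against these shares. Past 4-fold on this scale from the mean of the untreated libraries there were 57 higher and 36 lower genes. The filter drops genes expressed only in the labelled deleted library and keeps those missing only there. With a filter of 1 FPKM in 1 library, 370 genes were called higher and 220 lower. With 1 library against 2 there is no replicate check on the labelled deleted side and no p-value. The untreated libraries differed from each other by a median of 0.12 on the log2 scale, and 20 genes with at least 5 FPKM differed by 1 or more between them. The median difference of all genes, labelled deleted minus untreated, was -0.15, and list medians below are read against that value. Scaling by the median of ratios instead moved that median to -0.02 and gave 468 higher and 152 lower genes, so that the higher share of calls was 75.5% there and 61.5% without scaling. The sign of a list's median flipped under a scaling for the MAP kinase, p53, MHC class II and glycolysis lists. Where the medians of these lists are given below, they are not read as a direction.

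**Figure D1:**
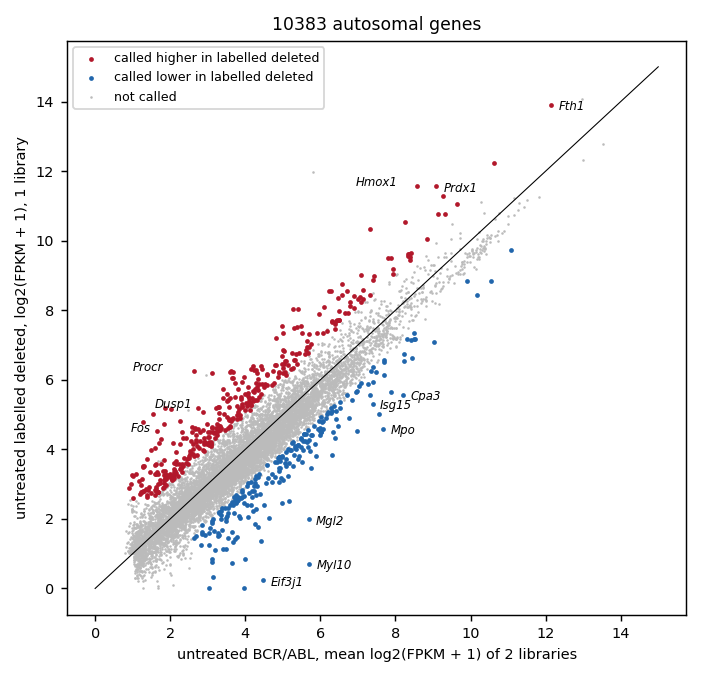
Level of each autosomal gene in the untreated labelled deleted library (vertical axis) and the mean of the 2 untreated BCR/ABL libraries (horizontal axis), both as log2(FPKM + 1). Red points are the 351 genes called higher, blue points the 220 called lower, grey points the rest, and the line marks equal levels.

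The 250 bases before the RefSeq start sites of Fos (chr12:85473640-85473889, plus strand) and Dusp1 (chr17:26508473-26508722, minus strand; both GRCm38) are shown as those of the genes named in the label. The motifs given here and below were picked with these windows in view, and a match is a description only. Capitals mark TGACGT on either strand, the core of the cAMP response element that CREB and ATF factors bind.
Fos: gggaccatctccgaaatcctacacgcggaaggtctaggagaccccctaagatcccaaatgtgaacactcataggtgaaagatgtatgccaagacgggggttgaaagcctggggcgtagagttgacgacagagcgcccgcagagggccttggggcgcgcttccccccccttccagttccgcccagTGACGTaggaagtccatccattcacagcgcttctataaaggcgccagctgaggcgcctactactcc
Dusp1: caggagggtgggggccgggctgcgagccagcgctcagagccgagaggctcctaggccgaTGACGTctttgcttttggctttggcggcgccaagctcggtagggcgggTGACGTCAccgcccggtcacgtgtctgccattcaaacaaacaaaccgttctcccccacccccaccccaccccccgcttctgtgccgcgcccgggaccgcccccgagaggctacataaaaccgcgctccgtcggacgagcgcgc
The Fos window held 1 such match and the Dusp1 window 3, of which 2 overlap as a palindrome. TGACGT was present in 12.5% of the 273 windows of genes called higher, in 8.24% of the 170 windows of genes called lower, and in 12.2% of the 7947 windows of all genes compared. The AP-1 site TGANTCA, searched on both strands, was absent from the Fos and Dusp1 windows. It stood in 12.1% of windows of genes called higher and 11.2% of windows of genes called lower, against 5.55% of all windows.

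Of 17 measured AP-1 and related bZIP genes, 3 were called higher and none lower, and 11 lay above 0. Fos, named in the label, was 1 of those 3. Over all genes compared, 3.38% were called higher and 2.12% lower. The list's median difference was 0.50. Atf3, a stress-induced partner of Jun, had 112 FPKM in the labelled deleted library, against 32.1 and 30.8 FPKM in the untreated libraries, a difference of 1.81. Jun had 41.0 FPKM in the labelled deleted library, against 18.9 and 16.3 FPKM (1.18). Junb and Jund also lay above both untreated libraries, Junb at 73.5 FPKM against 53.4 and 35.9 FPKM, and Jund at 46.5 FPKM against 28.1 and 20.4 FPKM. Neither was called, and the untreated pairs ranged over 0.56 (Junb) and 0.44 (Jund) on the log2 scale. Batf2, an interferon-induced member, was the lowest of the list at 1.02 FPKM in the labelled deleted library, against 3.91 and 4.28 FPKM, under the 5 FPKM minimum for a call. Fosb and Fosl1, the other Fos family members apart from Fosl2, did not pass the filter on low values.

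Among 12 measured MAP kinase phosphatases, 2 were called higher, 0 lower, and 11 lay above 0, with a median of 0.23. Over all genes compared, 3.38% were called higher and 2.12% lower, and 1 of the 2 calls was Dusp1, named in the label. Besides Dusp1, the called gene was Dusp3, which acts on ERK and JNK, at 43.8 FPKM in the labelled deleted library against 17.6 and 16.7 FPKM (1.30). The other 10 lay within 0.40 of the untreated mean. Dusp6, the cytoplasmic ERK phosphatase whose RNA follows ERK activity, was the only member below 0, at 15.3 FPKM against 19.0 and 17.9 FPKM (-0.25). None of 22 MAP kinases and upstream kinases was called (median -0.03). Of 18 ERK feedback and output genes, 1 was called higher and 0 lower (median -0.24).

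**Figure D2:**
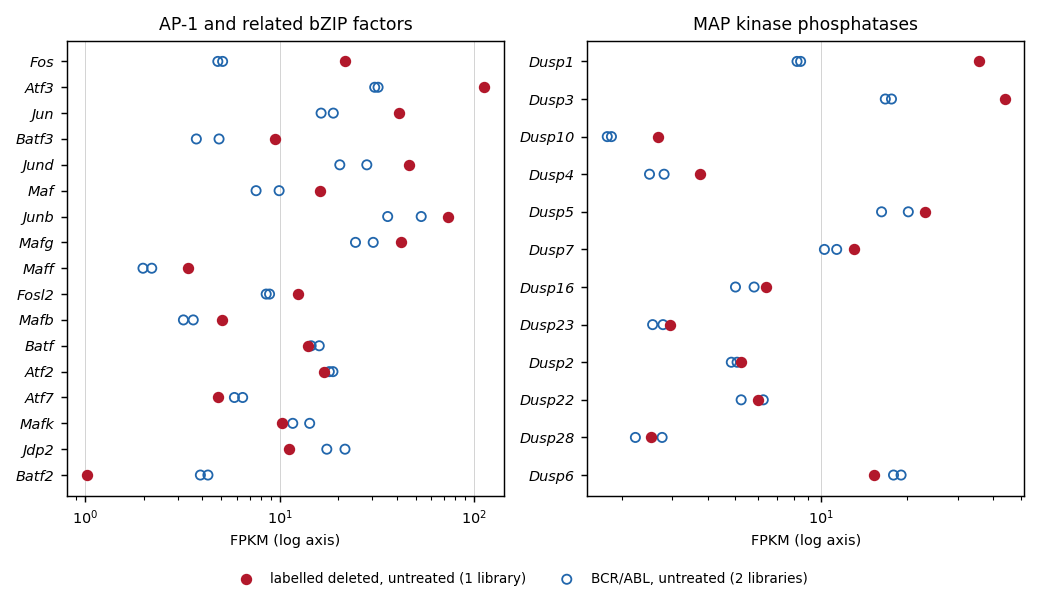
FPKM (log axis) of the measured AP-1 and related bZIP genes (left) and MAP kinase phosphatases (right), ordered by difference. Filled points are the untreated library labelled deleted and open points the 2 untreated BCR/ABL libraries, and Fos, Atf3, Dusp1 and Dusp3 lie far right of both open points.

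Other early response genes were divided. Of 30 measured immediate early genes 7 were called higher and 1 lower, with a median of 0.58. Over all genes compared, 3.38% were called higher and 2.12% lower. Klf4, a transcription factor of monocytes, had 17.3 FPKM in the labelled deleted library, against 3.28 and 3.18 FPKM (2.11). Rgs2, which damps G protein signalling, had 44.4 FPKM against 13.3 and 14.2 FPKM (1.62). Rhob, a small GTPase of endosomes, had 107 FPKM against 39.2 and 34.1 FPKM (1.53), and Ier5l had 5.53 FPKM against 1.32 and 1.26 FPKM (1.51). Klf6, Klf10 and Egr2 were also called, with differences of 1.38, 1.26 and 1.26. Myc was the gene called lower, at 35.7 FPKM in the labelled deleted library against 80.9 and 73.9 FPKM (-1.09).

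Of 11 measured cytokine genes known to be regulated by p38 and Dusp1, 1 was called higher and 2 lower (median 0.26). Over all genes compared, 3.38% were called higher and 2.12% lower. The neutrophil attractant Cxcl2 had 21.7 FPKM in the labelled deleted library, against 5.91 and 8.37 FPKM (1.5). Il6 had 10.0 FPKM against 28.7 and 30.6 FPKM (-1.48), and Cxcl10, which interferon also induces, had 7.33 FPKM against 24.7 and 26 FPKM (-1.66). None of 22 NF-kB subunit and target genes was called (median 0.03).

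Monocyte and macrophage markers were the list with the most genes called higher, 15 of 27 measured, with 2 called lower and a median of 1.18. Cd14, the lipopolysaccharide co-receptor, had 186 FPKM in the labelled deleted library, against 30.2 and 30.9 FPKM (2.57). Spp1, which encodes osteopontin, had 2482 FPKM against 572 and 657 FPKM (2.02). Lyz2, lysozyme of monocytes and granulocytes, had 4847 FPKM against 1575 and 1567 FPKM (1.62). Each of these lay far above both untreated libraries. Csf1r, the receptor for macrophage colony-stimulating factor, had 161 FPKM against 69.3 and 63.6 FPKM (1.27). The list was not uniform. The complement genes C1qb and C1qc were called lower, C1qb at 16.3 FPKM in the labelled deleted library against 41.1 and 37.3 FPKM (-1.22). Ly6c2, a marker of inflammatory monocytes, had 707 FPKM against 1203 and 1174 FPKM (-0.75). Summed over the list, FPKM were 12824 in the labelled deleted library, against 5465 and 5687 in the untreated libraries, and 12255 in the vector library. In bulk RNA, more cells of a type and more RNA per cell cannot be told apart.

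The receptors and enzymes of phagocytes among the called genes were also looked at by family, with families chosen after the values were seen. Of 19 measured scavenger and C-type lectin receptors, 9 were called higher and 2 lower (median 1.09). Clec7a, the receptor dectin-1 for fungal glucans, had 371 FPKM in the labelled deleted library against 65.4 and 83.6 FPKM (2.31). The fatty acid and lipoprotein receptor Cd36 had 163 FPKM against 27.0 and 35.3 FPKM (2.37), and Marco had 15.3 FPKM against 2.11 and 1.96 FPKM (2.43). Mgl2, a galactose-binding lectin of dendritic cells and macrophages, was among the largest differences in the other direction, at 2.98 FPKM against 51.9 and 49.7 FPKM (-3.70). Among 10 measured osteoclast genes, 5 were called higher and 1 lower. Dcstamp, needed for the fusion of osteoclasts and giant cells, had 35.4 FPKM in the labelled deleted library against 2.43 and 2.82 FPKM (3.33). The collagenase Ctsk had 12.1 FPKM against 1.78 and 1.43 FPKM (2.33). Itgb3, which is also a platelet integrin, was the member called lower (-1.18).

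Some lysosome genes were called higher. Of 24 measured lysosome and cathepsin genes, 7 were called higher and 0 lower, 23 lay above 0, and the median was 0.72. The protease Ctsd had 2111 FPKM in the labelled deleted library, against 846 and 762 FPKM (1.39). Atp6v0d2, a subunit of the acidifying proton pump, had 36.6 FPKM against 11.4 and 14.0 FPKM (1.46). Tfeb, the transcription factor of lysosome genes, had 17.0 FPKM against 7.07 and 5.88 FPKM (1.27), and Ctsb had 585 FPKM against 243 and 247 FPKM (1.25). Macrophages are rich in lysosomes, the summed macrophage markers were higher in the same library, and their part in the lysosome values was not tested.

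Genes of the NRF2 antioxidant response were among those called higher. NRF2 is a transcription factor that oxidants and electrophiles release from KEAP1, and it raises haem, thioredoxin and glutathione enzymes. Of 20 measured targets 8 were called higher and 0 lower, and the median was 0.99. Hmox1, which breaks down haem, had 3021 FPKM in the labelled deleted library, against 389 and 374 FPKM (2.98). The peroxidase Prdx1 had 3030.4 FPKM against 505 and 585 FPKM (2.48). Blvrb, which reduces biliverdin, had 181 FPKM against 47.1 and 34.6 FPKM (2.14). The cystine importer Slc7a11 had 83.8 FPKM against 19.3 and 21.1 FPKM (2.00). Srxn1, Nqo1, Gstm1 and Gclm were the other called members, with differences between 1.43 and 1.85. Summed over the list, FPKM were 8886 in the labelled deleted library, 2570 and 2449 in the untreated libraries, and 1549 in the vector library. Akr1b8, an aldo-keto reductase outside the list, had 25.4 FPKM against 2.51 and 2.62 FPKM (2.89).

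The 250 bases before the RefSeq start of Prdx1 (chr4:116685349-116685598, plus strand, GRCm38) are shown as those of a called NRF2 target that also holds AP-1 sites. Capitals mark TGACNNNGC, the core of the antioxidant response element that NRF2 binds, and the AP-1 site TGANTCA, each searched on both strands.
Prdx1: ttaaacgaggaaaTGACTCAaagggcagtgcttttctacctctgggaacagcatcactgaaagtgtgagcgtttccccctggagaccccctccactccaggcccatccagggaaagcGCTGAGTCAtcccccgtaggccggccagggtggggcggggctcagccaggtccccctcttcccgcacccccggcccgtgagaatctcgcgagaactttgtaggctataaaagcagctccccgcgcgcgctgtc
This window held 1 antioxidant core and 2 AP-1 sites, and the core contains 1 of those sites. Among the NRF2 targets called higher, 7 had a window and 2 of those held the antioxidant core. The core was present in 16.8% of windows of genes called higher, 19.4% of windows of genes called lower and 14.4% of all windows.

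Some iron genes were called higher too. Of 15 measured ferritin and iron genes 3 were called higher and 0 lower (median 0.27), where 3.38% of all genes compared were called higher. Fth1, the heavy chain of the iron store ferritin, had 15314 FPKM in the labelled deleted library, against 4567 and 4529.6 FPKM (1.75). Ftl1, the light chain, had 17138 FPKM against 8613 and 7404 FPKM, short of a call from 1 of the untreated libraries. The iron exporter Slc40a1 had 77.6 FPKM against 20.3 and 21.6 FPKM (1.84), and the phagosomal metal transporter Slc11a1 had 73.1 FPKM against 11.5 and 10.6 FPKM (2.62). Tfrc, which takes up transferrin iron, had 58.8 FPKM against 108 and 114 FPKM (-0.90) and was not called.

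Receptors for cytokines were mixed, with 6 of 29 called higher and 2 lower (median 0.19). Il7r had 78.7 FPKM in the labelled deleted library, against 14.7 and 19.5 FPKM (2.15). Il1r1 had 11.0 FPKM against 2.07 and 2.10 FPKM (1.96), and the gp130 subunit Il6st had 36.8 FPKM against 12.9 and 15.5 FPKM (1.32). The receptors called lower were Il1rl1, the interleukin-33 receptor of mast cells and basophils (10.5 FPKM against 36.2 and 38.8 FPKM), and Il2ra (2.15 FPKM against 7.63 and 8.52 FPKM).

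Interferon response genes formed the list with the most members called lower: 19 of 29, with 0 higher, 0 above 0 and a median of -1.34. Isg15, a ubiquitin-like modifier, had 38.8 FPKM in the labelled deleted library, against 186 and 152 FPKM (-2.08). Isg20, an RNA exonuclease, had 8.42 FPKM against 38.8 and 30.0 FPKM (-1.90). Gbp2, a GTPase that attacks the vacuoles of intracellular pathogens, had 14.4 FPKM against 48.8 and 55.4 FPKM (-1.78), and Igtp of the related p47 family had 12.9 FPKM against 57.0 and 58.2 FPKM (-2.07). Ifit1, a sensor of foreign RNA caps, had 8.10 FPKM against 28.1 and 32.3 FPKM (-1.77). The vector library, of cells without BCR/ABL, had 25.5 FPKM of Isg15 and 13.6 FPKM of Gbp2. Ifnar1, a subunit of the type I interferon receptor, was called higher, at 40.7 FPKM against 16.4 and 15.8 FPKM (1.29). Of 15 measured interferon-inducible GTPases, a family chosen after the values were seen that shares members with the list, 14 were called lower and 0 higher (median -1.78). Tgtp2 was the lowest of them, at 4.75 FPKM against 32.6 and 37.1 FPKM (-2.64).

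The 250 bases before the RefSeq starts of Isg15 (chr4:156200819-156201068, minus strand) and Ifit1 (chr19:34640639-34640888, plus strand; both GRCm38) are shown as examples of interferon-responsive promoters. Capitals mark GAAANNGAAA on either strand, the core of the interferon-stimulated response element.
Isg15: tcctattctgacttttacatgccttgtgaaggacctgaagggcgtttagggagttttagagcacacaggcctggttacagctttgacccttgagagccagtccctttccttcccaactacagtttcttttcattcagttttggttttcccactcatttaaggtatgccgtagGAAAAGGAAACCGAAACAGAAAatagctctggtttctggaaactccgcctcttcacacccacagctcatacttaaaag
Ifit1: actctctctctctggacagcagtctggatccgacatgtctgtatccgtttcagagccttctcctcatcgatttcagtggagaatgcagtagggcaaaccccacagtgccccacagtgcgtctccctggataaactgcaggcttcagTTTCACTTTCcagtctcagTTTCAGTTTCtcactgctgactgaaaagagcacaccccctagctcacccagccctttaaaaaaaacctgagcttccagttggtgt
The Isg15 window held 3 overlapping matches and the Ifit1 window 2. Among the interferon response genes called lower, 16 had a window, and 9 of those held the core. It was present in 14.7% of the windows of all genes called lower, in 4.4% of windows of genes called higher and in 3.47% of all windows.

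On the deposited scale, genes of antigen presentation by MHC class I lay below 0 in 16 of 16 cases (median -0.77). Of them 2 were called lower, where 2.12% of all genes compared were. These were H2-Q7, at 23.4 FPKM in the labelled deleted library against 68.2 and 57.1 FPKM (-1.38), and the peptide transporter Tap1, at 40.1 FPKM against 99.96 and 82.4 FPKM (-1.16). H2-Q7 has near-identical neighbours, and reads may have been divided among them.

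Most mast cell and basophil markers were called lower, with 12 of 16 called lower, 0 higher, 0 above 0 and a median of -1.83. Cpa3, the carboxypeptidase of mast cell granules, had 46.5 FPKM in the labelled deleted library, against 276 and 313 FPKM (-2.63). The basophil protease Mcpt8 had 31.5 FPKM against 196 and 182 FPKM (-2.55). Hdc, which makes histamine, had 22.2 FPKM against 132 and 119 FPKM (-2.44), and Prss34 had 0.251 FPKM against 8.74 and 6.91 FPKM (-2.81). Gata2, a transcription factor of mast cells and of stem cells, had 18.2 FPKM against 57.6 and 44.1 FPKM (-1.43). Kit had 5.80 FPKM against 11.5 and 11.7 FPKM, below the 34.5 FPKM of the vector library in all 3. Tpsg1, a tryptase gene of mast cells, was listed at 0 in the labelled deleted library, against 2.52 and 1.89 FPKM, and Epx, the eosinophil peroxidase gene, likewise at 0 against 1.39 and 1.49 FPKM. Among the genes compared, these were 2 of 4 listed at 0 in the labelled deleted library, the others being small RNAs. Prg2, the major basic protein of eosinophils, which basophils also make, had 0.814 FPKM against 14.8 and 15.1 FPKM (-3.14). The eosinophil ribonuclease gene Ear2 was called higher, at 35.2 FPKM against 5.80 and 5.59 FPKM (2.43). Of 4 eosinophil markers past the filter, 1 was called in each direction. Ear10 and Ear1 of the same list were left out by the filter, being under 1 FPKM in both untreated libraries. They had 15.2 and 9.07 FPKM in the labelled deleted library. Ear2, Ear10 and Ear1 have near-identical copies, so their values are uncertain. The summed FPKM of the mast cell and basophil list were 781 in the labelled deleted library, against 2008 and 1971 in the untreated libraries. The vector library had 2996 FPKM. The part of cell makeup in the other lists was not tested.

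Granule genes of early neutrophils were called lower as well. Of 13 primary granule neutrophil markers 9 were called lower and 0 higher (median -1.35). Mpo, myeloperoxidase, had 23.1 FPKM in the labelled deleted library, against 234 and 177 FPKM (-3.09). The elastase gene Elane had 49.1 FPKM against 290.2 and 188 FPKM (-2.23). Gfi1, a repressor needed for neutrophil maturation, had 4.28 FPKM against 17.2 and 16.6 FPKM (-1.76), and Prss57 had 2.03 FPKM against 10.0 and 7.62 FPKM (-1.68). The spread between the untreated libraries was wide for Elane and Mpo, but the labelled deleted library lay below both in each case. Summed over these markers, FPKM were 1041 in the labelled deleted library, 2590 and 2220 in the untreated libraries, and 2486 in the vector library. Of 21 late neutrophil markers 7 were called lower and 2 higher (median -0.93). Among them Itgb2l had 2.40 FPKM against 21.7 and 16.9 FPKM (-2.57), and Retnlg had 1.18 FPKM against 9.34 and 9.73 FPKM (-2.27). Chil3 had 462 FPKM against 1441 and 1574 FPKM (-1.70). The collagenase Mmp8 was called higher instead, at 782 FPKM against 302 and 351 FPKM (1.26), as was Anxa1 (1.29). S100a8 and S100a9, the most abundant late markers, were lower but not called, S100a8 at 7014 FPKM against 11121 and 12712 FPKM.

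Markers of other lineages gave fewer calls than the mast cell and granule lists. Of all genes compared, 3.38% were called higher and 2.12% lower. Of 17 megakaryocyte and platelet markers 4 were called lower and 2 higher (median -0.81). Thbs1, thrombospondin, had 134 FPKM in the labelled deleted library against 549 and 493 FPKM (-1.95), whereas the tetraspanin Cd9 had 718 FPKM against 225 and 221 FPKM (1.68). None of 12 erythroid markers was called (median -0.79). Among 19 stem and progenitor markers, 1 was called in each direction (median -0.74). The gene called higher was Procr, the protein C receptor, with 74.7 FPKM in the labelled deleted library against 5.10 and 5.22 FPKM (3.62). The other was Gata2. The filter passed 2 of 13 tabulated B lymphoid markers, and Pax5, Rag1 and Rag2 were listed at 0 in the labelled deleted library. Of 17 stromal and endothelial markers 5 passed the filter, with Dcn and Lum listed at 0, and the called member Vim, which macrophages express too, had 1757 FPKM against 563 and 563 FPKM (1.64). Of 19 T and NK markers 5 passed, and Cd3e was listed at 0.

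**Figure D3:**
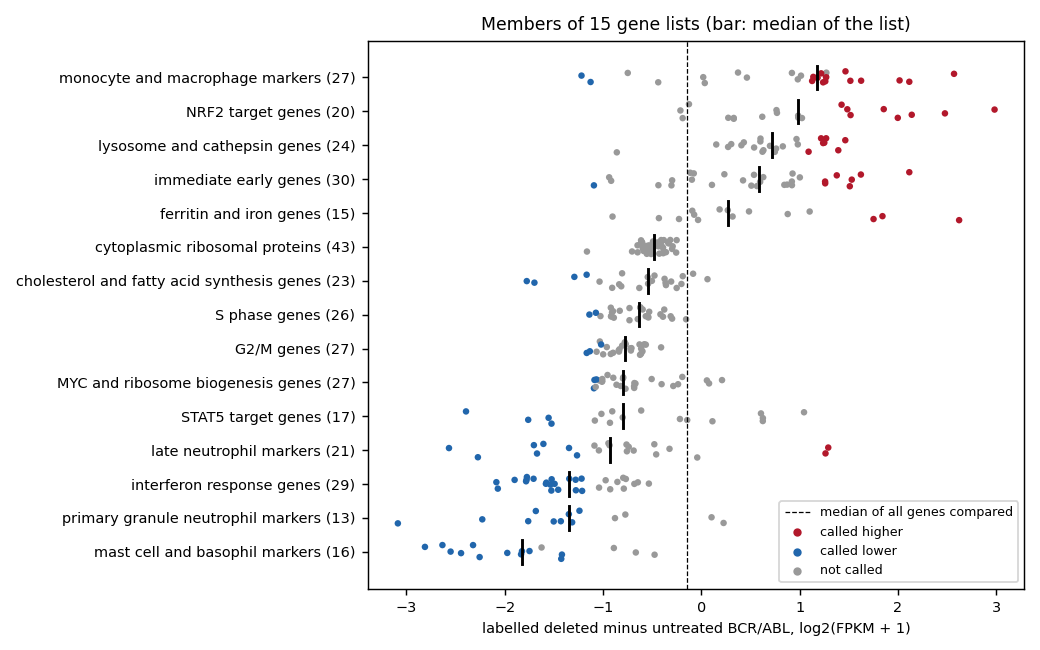
Difference on the log2(FPKM + 1) scale, labelled deleted minus the mean of the 2 untreated BCR/ABL libraries, for each measured member of 15 gene lists (number of members in brackets). Red points were called higher, blue points lower and grey points not called, the bars are list medians and the dashed line the median of all genes (-0.15). The medians of the macrophage and NRF2 lists lie to the right of it, and those of the interferon, mast cell and granule lists to the left. Some members of the macrophage and granule lists lie on the other side.

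Some genes of the growth lists were called lower, where 2.12% of all genes compared were. Of 17 STAT5 target genes 4 were called lower and 0 higher (median -0.80). Lif, a cytokine of the interleukin-6 family, had 2.64 FPKM in the labelled deleted library, against 19.0 and 17.3 FPKM (-2.39). The cyclin gene Ccnd2 had 28.1 FPKM against 84.4 and 84.6 FPKM (-1.55). Gfi1 and Il2ra, named above, were the other members. Of 27 MYC and ribosome biogenesis genes 3 were called lower and 0 higher (median -0.79), and these were Myc, Nolc1 and Polr1b. No cytoplasmic ribosomal protein gene of 43 was called, though 43 of 43 lay below 0 (median -0.48).

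On the deposited scale all 27 measured G2/M genes lay below 0 (median -0.78), as did all 26 S phase genes (median -0.63). Called lower were 3 G2/M genes and 2 S phase genes, where 2.12% of all genes compared were. The mitotic kinase Plk1 had 24.3 FPKM in the labelled deleted library, against 62.2 and 50.2 FPKM (-1.17), Aurkb had 20.5 FPKM against 48.2 and 44.4 FPKM (-1.13), and Cks2 had 82.3 FPKM against 169 and 167 FPKM (-1.02). In S phase the called genes were Rrm2, at 76.0 FPKM against 165 and 157 FPKM (-1.07), and Cdca7 (-1.14). The calls of Myc, Nolc1, Polr1b, Plk1, Aurkb, Cks2, Tap1 and Rrm2 were lost under median of ratios scaling and under quantile normalization, and that of Cdca7 under the scaling alone.

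Some metabolic genes were called lower. Of 23 cholesterol and fatty acid synthesis genes 4 were called lower and 0 higher (median -0.54). Scd2, a desaturase, had 46.1 FPKM in the labelled deleted library, against 161 and 159 FPKM (-1.78), and Fasn had 16.4 FPKM against 48.1 and 36.0 FPKM (-1.29). The calls of Fasn and Fdps, 2 of these 4, were lost under median of ratios scaling. Among 25 glycolysis and hypoxia genes, whose median changed sign under a scaling, 4 were called lower and 0 higher (median -0.12). They included Vegfa, at 5.18 FPKM against 18.3 and 15.9 FPKM (-1.55), and the glucose transporter Slc2a3, at 14.9 FPKM against 47.0 and 43.7 FPKM (-1.54). The call of Egln3, also among these 4, was lost under both scalings and at a pseudocount of 5. Of 16 heat shock genes 2 were called lower and 0 higher (median -0.68), the chaperonin Hspd1 (162 FPKM against 356 and 369.5 FPKM) and Hsp90ab1 (459 FPKM against 985 and 938 FPKM). Both calls were lost under median of ratios scaling. Of 22 ATF4 target genes 2 were called higher and 3 lower (median -0.32). Those higher were Slc7a11, given above, and Cebpb, at 242 FPKM against 108 and 104 FPKM (1.19). The amino acid importer Slc7a5 was the lowest, at 35.8 FPKM against 99.0 and 84.6 FPKM (-1.33).

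Of the p53 target and BCL2 family lists, 2 and 1 genes were called higher, where 3.38% of all genes compared were. Gdf15 and Plk2 were the called members among 20 p53 target genes (median -0.11), with Gdf15 at 23.3 FPKM in the labelled deleted library against 6.17 and 4.62 FPKM (1.93), and Plk2 at 41.5 FPKM against 10.1 and 11.3 FPKM (1.86). Bcl2l11, which encodes the death protein BIM, was the called member of 17 BCL2 family genes (median 0.11), at 30.7 FPKM against 13.4 and 13.9 FPKM (1.12). None of 23 chromatin regulators was called (median -0.15).

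Outside predicted and small RNA genes, the 15 largest differences upward were led by Procr, followed by Treml4, a receptor of myeloid cells, at 26.7 FPKM in the labelled deleted library against 1.39 and 1.46 FPKM (3.51). The membrane protein gene Pmp22 had 31.1 FPKM against 1.72 and 2.07 FPKM (3.47). The endothelin receptor Ednrb had 34.8 FPKM against 2.89 and 3.27 FPKM (3.14), and the neuropeptide gene Npy had 72.2 FPKM against 7.12 and 8.33 FPKM (3.07). Each of these was low in the untreated libraries and well expressed in the labelled deleted library. Mmp12, the elastase of macrophages, reached 1293 FPKM against 142 and 179 FPKM (3.01). Emp1 had 260.3 FPKM against 36.9 and 45.9 FPKM (2.63), Uchl1, a deubiquitinase, had 74.8 FPKM against 11.5 and 10.8 FPKM (2.64), and Pdpn, podoplanin, had 73.9 FPKM against 10.0 and 13.9 FPKM (2.55). Gpr137b, a lysosomal membrane protein gene, had 26.9 FPKM against 3.37 and 4.17 FPKM (2.55). This ranking holds only genes past the filter, which dropped those under 1 FPKM in both untreated libraries. Ear10, which has near-identical copies, was so left out, at 15.2 FPKM against 0 and 0 FPKM. The same holds for Ifi202b, at 11.7 FPKM against 0 and 0.0188 FPKM.

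The largest difference downward was that of Myl10, a myosin light chain gene, at 0.638 FPKM in the labelled deleted library against 54.2 and 48.3 FPKM (-4.99). With imatinib Myl10 had 0.940 FPKM in the labelled deleted library, against 40.7 and 43.2 FPKM, and in the vector library it had 24.2 FPKM. Its level was thus low in both libraries labelled deleted and at 24.2 FPKM or more in the other 9. The kallikrein gene Klk1b11 had 1.56 FPKM against 20.5 and 19.98 FPKM (-3.05), and belongs to a family of near copies. The chemokine gene Ccl8 had 0.658 FPKM against 11.7 and 11.4 FPKM (-2.92), and Iigp1, an interferon-inducible GTPase, had 3.06 FPKM against 23 and 24.9 FPKM (-2.62). Eif3j1 had 0.178 FPKM against 16.7 and 26.9 FPKM (-4.24), but with imatinib it had 11.6 FPKM against 5.82 and 8.11 FPKM. Eif3j1 has a near-identical copy, Eif3j2, between which reads may have been divided, so its value is uncertain.

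**Figure D4:**
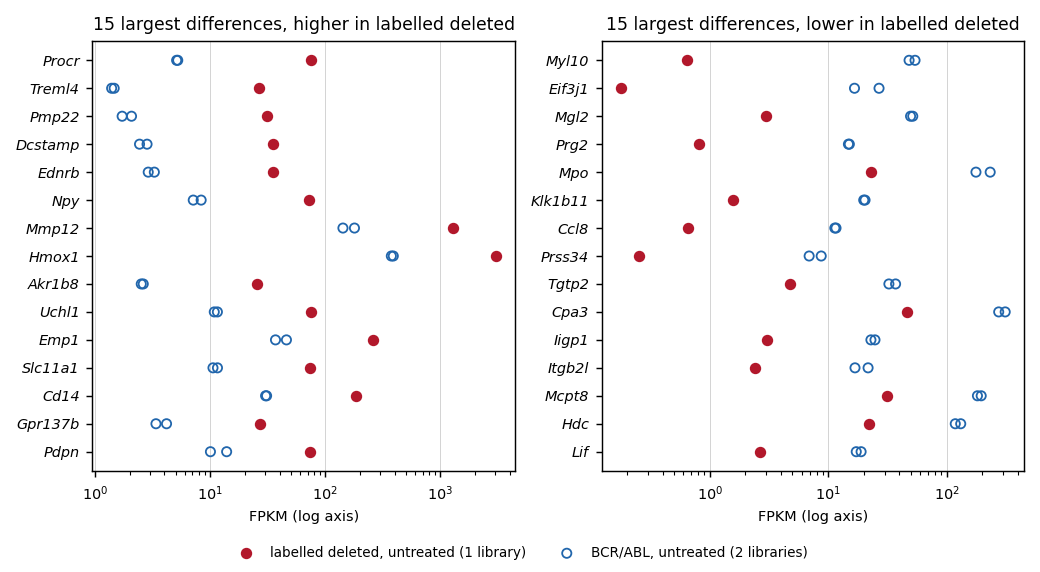
FPKM (log axis) of the 15 named genes past the filter with the largest difference upward (left) and the 15 with the largest downward (right). Filled points are the untreated library labelled deleted and open points the 2 untreated BCR/ABL libraries, whose values lie close together for most genes.

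The imatinib-treated libraries hold none of the 3 libraries above, and the differences could be looked at there again. Imatinib inhibits the BCR/ABL kinase. By the same rule 184 of the 10383 genes (1.77%) were called higher in the labelled deleted library with imatinib than in both imatinib libraries, and 139 (1.34%) lower. Of the 351 genes called higher without imatinib, 349 (99.4%) lay above both imatinib libraries and 165 (47.0%) were called higher, against 33.0% above both among all genes. Of the 220 called lower, 217 (98.6%) lay below both and 116 (52.7%) were called lower, against 51.7% below both among all genes. The differences with and without imatinib correlated across the 10383 genes with Pearson's r of 0.867, where genes are not independent and both labelled deleted libraries may share a source. The interferon list had 19 members called lower with imatinib, the mast cell list 12 and the NRF2 list 8 called higher, as many as without it. The macrophage list had 5 called higher with imatinib, against 15 without, at a median of 0.76. The lysosome list had 0 of 24 called with imatinib, at a median of 0.52. The immediate early list had 2 called higher with imatinib, against 7 without, at a median of 0.20. The AP-1 list had 3 called higher in each case, but Jun was not among them with imatinib. It had 22.9 FPKM in the labelled deleted library with imatinib, against 13.5 and 18.6 FPKM (0.50). Whether these list counts differ between the comparisons was not tested.

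**Figure D5:**
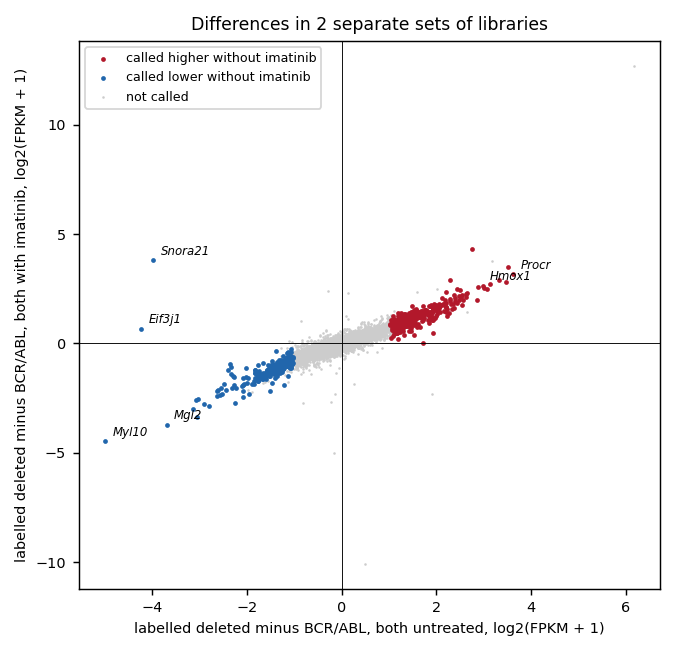
Difference of each gene between the labelled deleted library and BCR/ABL cells, without imatinib (horizontal axis) and with imatinib (vertical axis), on the log2(FPKM + 1) scale. Red and blue points are the genes called higher and lower without imatinib, and all but Eif3j1, Snora21 and 3 others lie on the same side of both imatinib libraries.

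The drug pair DFC+BCI, given as inhibitors of FOS and Dusp1, could be set beside the labelled deletion in cells with imatinib, where no library is shared with the untreated comparison. Of the 351 genes called higher in the labelled deleted library, 189 (53.8%) were higher with imatinib+DFC+BCI than with imatinib, against 50.2% of all genes. Among the 220 called lower, 71 (32.3%) were higher with the drugs. Across all genes the correlation of the labelled deletion's differences with those of the added drugs was 0.0765. Individual genes differed: Hmox1, Atf3 and Jun were higher in both, by 1.77, 2.15 and 3.65 with the drugs, whereas Cd14 was lower with the drugs by -0.83 and Prdx1 by -0.41. Among interferon genes, Ifit1 differed by -0.79 and Isg15 by 0.19 with the drugs. DFC+BCI without imatinib was measured against the same untreated libraries, and its values are given side by side. Procr had 74.7 FPKM in the labelled deleted library and 8.66 and 8.41 FPKM with DFC+BCI, against 5.10 and 5.22 FPKM untreated. Mpo had 23.1 FPKM in the labelled deleted library and 177 and 205 FPKM with DFC+BCI, against 234 and 177 FPKM untreated.

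By chromosome, from 3.16% (chromosome 18) to 8.33% (chromosome 6) of genes were called, against 5.50% of all genes. Within 5 Mb of Fos 2 of 55 genes were called (Irf2bpl and Sipa1l1), and within 5 Mb of Dusp1 6 of 147, of which Prss34 and Tpsb2 are mast cell and basophil proteases. Within 5 Mb of Gt(ROSA)26Sor, 1 of 45 genes was called (Alox5, 2.22%). Within 10 Mb the counts were 5 of 91 genes at Fos (5.49%), 10 of 284 at Dusp1 (3.52%) and 7 of 78 at Gt(ROSA)26Sor (8.97%).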

How the data were processed

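RNA of 11 libraries was measured by stranded mRNA sequencing. The authors deposited 1 table of FPKM values per gene, made with TopHat and Cufflinks on mm10 per the submitters' processing notes. Versions, annotation and read counts are not given in the sources used here, so the depth behind each value is unknown. The FPKM summed to 505615 in the untreated library labelled deleted and to 527875 and 489904 in the untreated BCR/ABL libraries (459559 to 529427 over all 11). That the unit is FPKM rests on the notes and the values.

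Differences were taken on the log2 scale of the deposited FPKM plus a pseudocount of 1, which understates changes of low genes. Of 10765 rows with 1 FPKM or more in 2 of the 3 libraries, 325 on the X chromosome and 57 that could not be placed were left out. Positions came from GENCODE vM21 and RefSeq (GRCm38), and promoter windows from RefSeq, found for 7947 of 10383 genes. A lone library allows no test, so no p-value was computed. The genes named by rule are the AP-1 and phosphatase lists, the 15 largest differences in each direction outside predicted and small RNA genes, up to 4 called members a list by size, and genes listed at 0. Other genes named were chosen after their values were seen. Members and lists were chosen with earlier results of these data known. Where the labels do not say that libraries came from separate animals, their spread may be technical. Python 3.11.15, numpy 2.4.6, pandas 2.3.3 and matplotlib 3.10.9 were used. Some results are not reported here.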

Additional observations from a re-analysis of the deposited data

Results flagged for a closer look

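Eif3j1 and Snora21 differed in opposite directions without and with imatinib, a contrast that was not tested. Eif3j1 was lower without imatinib (-4.24) and higher with it (0.68), and Snora21, a small RNA listed at 0 FPKM in the untreated library labelled deleted against 14.6 and 14.9 FPKM, was higher with imatinib by 3.82.

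Genes of the Y chromosome, outside the comparison, were detected in the untreated library labelled deleted and were at or near 0 in both untreated BCR/ABL libraries: Ddx3y at 14.4 FPKM, Eif2s3y at 35.1 FPKM, Kdm5d at 4.28 FPKM and Uty at 4.48 FPKM.

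Some autosomal genes had at least 5 FPKM in the untreated library labelled deleted and under 1 FPKM in both untreated BCR/ABL libraries, so that the filter left them out. These were Cav1 at 16.3 FPKM, Ear10 at 15.2 FPKM, Ifi202b at 11.7 FPKM, Hba-a1 at 11.3 FPKM, Ear1 at 9.07 FPKM, Dok7 at 6.02 FPKM, Mt3 at 5.95 FPKM, Cd276 at 5.37 FPKM and Serpinb9b at 5.15 FPKM. Ifi202b is known to differ between inbred mouse strains, and Ear10, Ear1 and Hba-a1 have near-identical copies, so their values are uncertain.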

How the results depend on the processing

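Of 106 named genes called, 79 kept their call under all 12 alternatives and 0 changed direction. A pseudocount of 0.1, looser filters, a minimum of 1 FPKM, a 1.5-fold threshold and the difference from the mean could not remove a call. They only loosen the rule. Leaving out an untreated library could do so only through the 5 FPKM minimum. Named calls were lost at a pseudocount of 5 (20 genes), a minimum of 10 FPKM (7), median of ratios scaling (14) and quantile normalization (9). A pseudocount of 5 in place of 1 gave 214 higher and 123 lower genes, and 4 immediate early genes higher. A 1.5-fold threshold gave 771 higher and 1065 lower, with 13 NRF2, 13 lysosome and 12 immediate early genes higher and 15 late neutrophil genes lower. Leaving out either untreated BCR/ABL library gave 404 to 441 higher and 260 to 348 lower genes, against 351 and 220 with both. The 348 lower genes were those without the second library, the 1 leave-out count moved by over 1.5 times. The pseudocount of 5 and the 1.5-fold threshold also moved the counts of all higher and lower genes by over 1.5 times. Under quantile normalization 430 genes were called higher and 175 lower. Jun lost its call at a pseudocount of 5. The cause of these changes was not tested beyond the thresholds' own construction. No paired analysis was possible because the columns carry no replicate numbers and the labelled deleted group has 1 library. Read depth is unknown, so values near 1 FPKM have no stated precision.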
